A study of Arabidopsis thaliana with 24 samples.

Results

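The nuclear genes for the photosystem subunits, the chlorophyll-binding antenna and the small subunit of Rubisco were followed in roots and shoots of Arabidopsis thaliana seedlings. The set held 40 loci, listed by name, of the 33602 loci counted by RNA sequencing. It held 18 antenna genes (9 of the major LHCII trimer, 5 of the minor LHCII and 4 of LHCI), 18 photosystem subunit genes (9 of photosystem I and 9 of photosystem II) and 4 Rubisco small subunit (RBCS) genes. All 40 passed the filter on low counts in the fits of shoots, of roots and of both organs.

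Light-harvesting (LHC) proteins bind chlorophyll and carotenoids and pass excitation energy to photosystem II and photosystem I, which drive electron transport from water to ferredoxin. Rubisco then fixes carbon dioxide with the products of that electron transport. The reaction-centre proteins and the large Rubisco subunit are encoded in the plastid, whereas the antenna, many peripheral photosystem subunits and the small Rubisco subunit are encoded in the nucleus. Their nuclear genes are known to be among the most highly expressed genes of green shoots, to respond to light and to the state of the plastid, and to be activated by the GOLDEN2-LIKE factors.

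The study compared 3 genotypes in 2 organs of 7-day-old seedlings. The genotypes were 41-OX, labelled as constitutive CLE41, and pxy, the pxy-5 mutant of a receptor kinase gene, with the control Col-0 wild type (WT). CLE41 encodes the peptide ligand of the PXY receptor, which acts in the vascular cambium, and the study asked for regulators of vascular proliferation. The promoter that drives CLE41, the number of transgenic lines and the growth conditions are not given in the sources used here. After 2 libraries were left out, 4 libraries of 41-OX shoots, 4 of pxy shoots, 3 of WT shoots, 4 of 41-OX roots, 3 of pxy roots and 4 of WT roots remained.

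The 22 libraries analysed held 7033091 to 12226066 counts assigned to genes. CLE41 stood at 27.7 to 29.7 CPM (counts relative to library size, scaled by the TMM method) in 41-OX shoots and at 15.5 to 21.95 CPM in WT shoots, and at 26.3 to 33.3 CPM in 41-OX roots and 8.25 to 10.15 CPM in WT roots. PXY counts were 15.9 to 18.5 CPM in 41-OX shoots, 35.8 to 42.6 CPM in pxy shoots and 9.14 to 11.5 CPM in WT shoots, and 12.7 to 18.5 CPM in pxy roots and 14.6 to 23.6 CPM in WT roots, so the count of this gene does not check the mutant label. The 2 libraries left out stood apart in the genes described here. The library labelled pxy root replicate 2 held 5.27% of its gene counts in the 40 genes. The other pxy roots held 0.0725 to 0.108% and the pxy shoots 4.67 to 5.94%. The library labelled WT shoot replicate 2 held 13.2%, where the remaining WT shoots had 5.14 to 5.39%. The 2 libraries left out held 7765685 gene counts (pxy root replicate 2) and 167131 gene counts (WT shoot replicate 2).

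Upstream sequences are shown for 5 genes that carry the contrasts described below, namely the member that fell most in 41-OX shoots (PSBR), antenna genes that fell (LHCB2.3 and LHCA3), the 1 member that rose (LHCB4.3) and a Rubisco gene that did not pass the test (RBCS3B). Each is the 150 bases before the annotated gene start, in RefSeq's TAIR10.1, at chr1:29735802-29735951 (plus strand), chr3:10255756-10255905 (plus strand), chr1:22699565-22699714 (plus strand), chr2:16745478-16745627 (plus strand) and chr5:15378643-15378792 (minus strand). Capitals mark the G-box CACGTG and the motif CCAATC or its reverse complement.
PSBR (AT1G79040): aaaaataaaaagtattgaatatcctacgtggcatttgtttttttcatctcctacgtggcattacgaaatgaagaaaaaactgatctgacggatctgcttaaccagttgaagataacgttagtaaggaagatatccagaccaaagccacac
LHCB2.3 (AT3G27690): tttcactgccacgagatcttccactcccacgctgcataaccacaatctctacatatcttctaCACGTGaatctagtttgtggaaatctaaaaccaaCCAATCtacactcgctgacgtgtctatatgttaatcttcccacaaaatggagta
LHCA3 (AT1G61520): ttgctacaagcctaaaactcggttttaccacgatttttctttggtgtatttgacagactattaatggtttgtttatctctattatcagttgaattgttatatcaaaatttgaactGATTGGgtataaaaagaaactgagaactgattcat
LHCB4.3 (AT2G40100): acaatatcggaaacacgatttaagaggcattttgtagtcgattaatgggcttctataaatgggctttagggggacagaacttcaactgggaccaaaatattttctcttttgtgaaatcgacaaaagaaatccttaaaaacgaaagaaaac
RBCS3B (AT5G38410): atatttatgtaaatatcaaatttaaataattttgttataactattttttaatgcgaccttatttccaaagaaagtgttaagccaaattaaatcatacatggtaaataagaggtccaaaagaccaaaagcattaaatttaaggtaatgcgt

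In a search of both strands of the 250 bases upstream, CCAATC was found in 10 of the 18 antenna genes, in 1 of the 9 photosystem II genes, and in none of the 9 photosystem I or 4 RBCS genes. That made 11 of the 40 genes, against 10.2% of 27444 protein-coding nuclear genes. The G-box CACGTG was found in 7 of the 40 genes (6.49% of all genes), the I-box GATAAG in 10 (12.3% of all genes), the CCA1-type sites AAAAATCT or AACAATCT in 5 (8.38% of all genes) and the evening element AAAATATCT in none (2.36% of all genes). No searched motif contains another. LHCB4.3, PSBR and RBCS3B held none of these motifs in that window. These matches describe letters in the windows and do not show that a factor binds there.

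Per kilobase of exon, LHCA4 (AT3G47470), the gene of the LHCI protein that carries long-wavelength chlorophylls, had the highest level of the 40 genes in WT shoots at 4421 ± 107 CPM per kb (SD, n = 3). PSBR (AT1G79040), for a subunit on the lumenal side of photosystem II, followed at 3208 ± 167 CPM per kb, and CAB1 (AT1G29930) and LHB1B2 (AT2G34420), both genes for the LHCII protein LHCB1, stood at 2723 ± 138 and 2689 ± 102 CPM per kb. CAB1 and LHB1B2 differed by less than their SDs. Within the major LHCII genes the level ran from 343 ± 21.7 CPM per kb for LHCB2.3, a gene of the LHCII protein that is phosphorylated in state transitions, up to that of CAB1. Within photosystem I it ran from 689 ± 47.6 CPM per kb for PSAD-1, which helps dock ferredoxin, to 2555 ± 96.7 CPM per kb for PSAK, which sits next to LHCI.

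Among the Rubisco genes RBCS1A (AT1G67090) was highest, at 1843 ± 87.6 CPM per kb, and RBCS1B lowest, at 300.1 ± 6.38 CPM per kb. NPQ4, which encodes the photoprotective subunit PsbS, was the lowest photosystem II gene at 244 ± 2.15 CPM per kb. In LHCI, LHCA2 was lowest at 798 ± 53.2 CPM per kb, and in the minor LHCII, LHCB5 (the antenna protein CP26) was highest at 2189 ± 28.7 CPM per kb. LHCB4.3, a divergent gene for the antenna protein CP29, was the lowest of the 40 at 6.13 ± 0.215 CPM per kb, far under LHCB4.1 (921 ± 30.5 CPM per kb) and LHCB4.2 (633 ± 25.3 CPM per kb), which encode the same protein. With coding length in place of exon length, LHCA4 and PSBR stayed first and second and LHCB4.3 last, while other ranks moved. RBCS1B moved from rank 38 to rank 31, CAB1 from 3 to 6 and LHB1B2 from 4 to 8, and PSAL took the place of PSAD-1 as the lowest photosystem I gene.

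**Figure D1:**
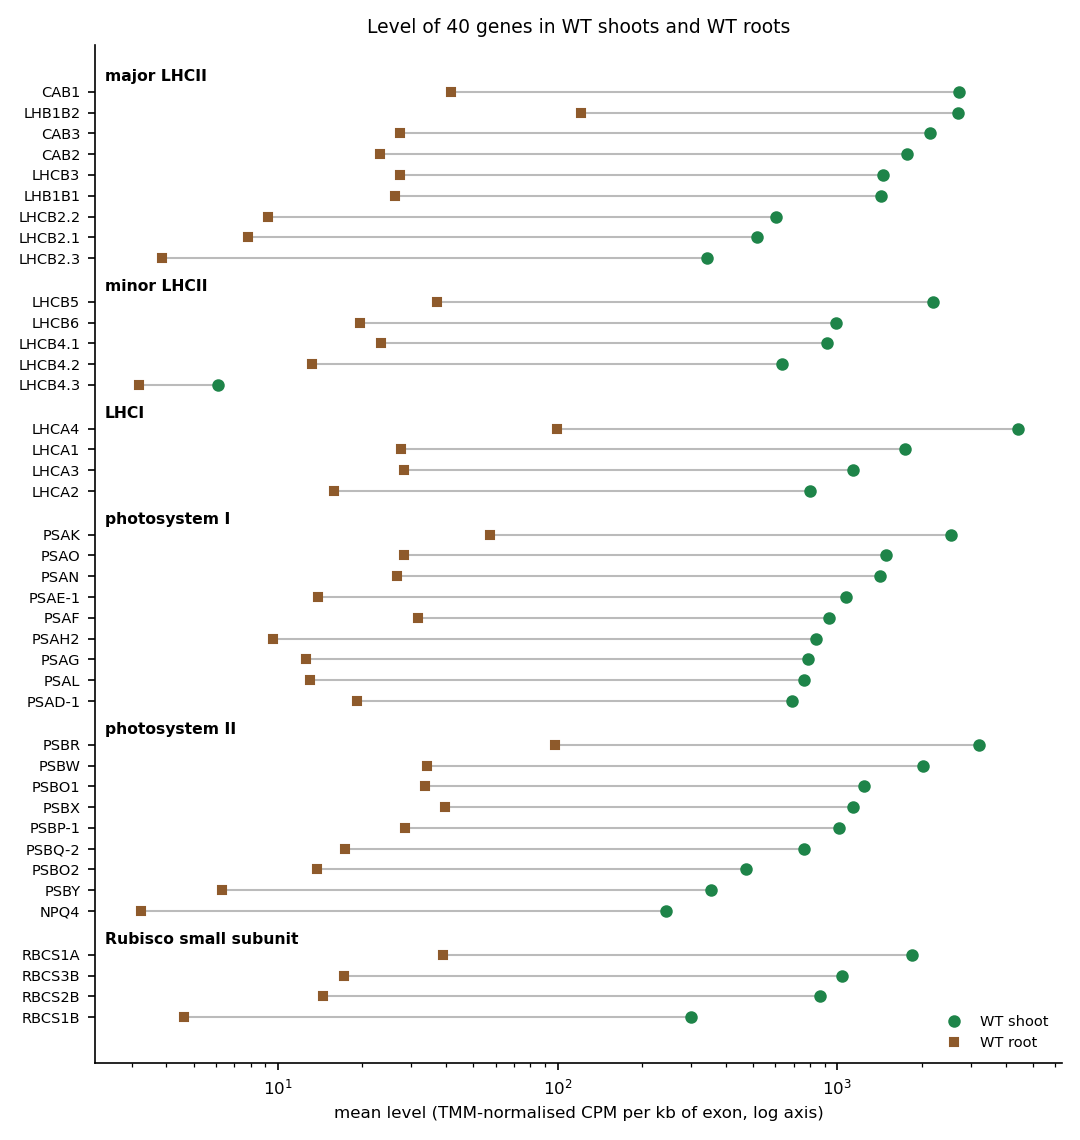
Mean level of each of the 40 genes in WT shoots (circles, n = 3) and WT roots (squares, n = 4), in TMM-normalised CPM per kb of exon on a log axis, grouped by role. LHCA4 is highest in shoots at 4421 CPM per kb and LHCB4.3 is lowest at 6.13 CPM per kb, with its root value at 3.19 CPM per kb, the smallest distance between organs.

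Several of these genes are close copies, and reads may be split between them. Coding sequences were 95.6 to 96.4% identical among CAB1, CAB2 and CAB3 and 96.7 to 97.3% among RBCS1B, RBCS2B and RBCS3B, and 12 of the 40 genes held a 50-base stretch found elsewhere in the genome. Levels of single genes in these families are therefore uncertain, as is any overlap with antisense genes, since the strand setting of the counting is not given in the sources used here.

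All 40 genes were higher in shoots than in roots in each genotype, in edgeR's quasi-likelihood test over all genes with Benjamini-Hochberg adjusted p under 0.05. The share of all tested genes called higher in shoots was 39.6% in 41-OX, 40.2% in pxy and 40.7% in WT. The median log2 fold change of the 40 genes was 3.99 in 41-OX, 6.65 in pxy and 5.74 in WT. Without 41-OX root replicate 4 the median in 41-OX was 5.51. In WT, the largest difference was that of LHCB2.3 (log2 fold change 6.47, SE 0.98, adjusted p = 1.15e-05), which stood at 531, 468 and 508 CPM in the 3 WT shoots and at 11.7, 1.71, 1.78 and 7.44 CPM in the 4 WT roots. The smallest was that of LHCB4.3 (log2 fold change 0.95, SE 0.18, adjusted p = 3.29e-05), followed by LHB1B2 (log2 fold change 4.48, SE 0.34, adjusted p = 1.32e-09).

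LHCB4.3 stood at 8.84, 9.20 and 8.58 CPM in WT shoots and at 4.79, 4.93, 4.58 and 4.15 CPM in WT roots. Its shoot values were therefore all higher than its root values, but by less than those of any other gene of the set in each of the 3 genotypes, with a log2 fold change of 1.57 in 41-OX and 1.04 in pxy. The 2 other CP29 genes differed between WT organs by a log2 fold change of 5.30 (LHCB4.1) and 5.58 (LHCB4.2).

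In shoots, 41-OX had less RNA of many antenna and photosystem genes than WT, by small amounts, and no called change of RBCS. Of the 40 genes, 20 were lower and 1 was higher in 41-OX shoots, while 19 did not pass the test (edgeR quasi-likelihood test over 20163 genes). The transgenic shoots differed from WT in much of the transcriptome, with 15.8% of all tested genes called lower (3194 genes) and 15.1% called higher (3041 genes). With scaling by total count alone that split was 2413 lower and 3993 higher, while 19 of the 40 genes were lower and 1 was higher. The median log2 fold change of the 40 genes was -0.27, beside 0.00 over all tested genes, and 35 of the 40 estimates were negative. In bulk seedling shoots, fewer cells of a type and less RNA per cell cannot be told apart.

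Of the 9 genes of the major LHCII trimer, 7 fell in 41-OX shoots. LHCB2.3 stood at 329, 328, 401 and 382 CPM in the 4 libraries of 41-OX shoots and at 531, 468 and 508 CPM in the 3 of WT shoots (log2 fold change -0.47, SE 0.11, adjusted p = 0.00152). LHCB3 (AT5G54270), for the trimer protein without the phosphorylated N-terminus, stood at 1380.0, 1333, 1494 and 1409.9 CPM in 41-OX shoots and at 1714, 1807 and 1893 CPM in WT shoots (log2 fold change -0.35, SE 0.10, adjusted p = 0.00769). For both genes every 41-OX library lay below every WT library. LHB1B2 stood at 2188, 2144, 2413 and 2166 CPM in 41-OX shoots and at 2736, 2762 and 2932 CPM in WT shoots (log2 fold change -0.33, SE 0.10, adjusted p = 0.0136), a call that was lost without WT shoot replicate 4. LHCB2.1 and LHCB2.2 fell too (log2 fold change -0.33 and -0.33); both calls were lost without WT shoot replicate 1 or 4, and that of LHCB2.1 also without 41-OX shoot replicate 1. CAB2 and LHB1B1 fell close to the threshold (adjusted p = 0.0471 and 0.0399). Both calls ended when 41-OX shoot replicate 1, 2 or 4, pxy shoot replicate 2 or 3, or WT shoot replicate 1 or 4 was omitted, and that of CAB2 also without WT shoot replicate 3. CAB1, at 2769.9, 2584, 3110.2 and 2808 CPM in 41-OX shoots and 3255, 3247 and 3545 CPM in WT shoots, did not pass (log2 fold change -0.24, SE 0.11, adjusted p = 0.108), nor did CAB3 (adjusted p = 0.065), although neither gene's groups overlapped.

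The minor LHCII genes went in both directions. LHCB5 (AT4G10340) fell, with 2393, 2137, 2460.1 and 2291 CPM in 41-OX shoots and 3019, 3014 and 3086 CPM in WT shoots (log2 fold change -0.38, SE 0.10, adjusted p = 0.00657). LHCB4.2 (AT3G08940) fell, with 693, 702, 749.7 and 719 CPM in 41-OX shoots and 837, 854 and 904 CPM in WT shoots (log2 fold change -0.26, SE 0.09, adjusted p = 0.03), a call that was lost in 6 of the 11 fits without 1 library. The libraries whose omission ended it were WT shoot replicates 1, 3 and 4 and 41-OX shoot replicates 1, 2 and 4. LHCB4.3 rose, with 14.6, 11.9, 13.4 and 13.0 CPM in 41-OX shoots and 8.84, 9.20 and 8.58 CPM in WT shoots (log2 fold change 0.57, SE 0.16, adjusted p = 0.0092). It was the only 1 of the 40 genes called higher, and it is known to be induced by strong light. LHCB6, the antenna protein CP24, and LHCB4.1 did not pass (log2 fold change -0.28, adjusted p = 0.0555, and log2 fold change -0.24, adjusted p = 0.0925).

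Of the 4 LHCI genes, 3 fell. LHCA4 stood at 4643, 3647, 4404 and 4627 CPM in 41-OX shoots and at 5565, 5807 and 5805 CPM in WT shoots (log2 fold change -0.39, SE 0.12, adjusted p = 0.0124). LHCA3 stood at 1329, 1334, 1563 and 1515 CPM in 41-OX shoots and at 1801, 1909 and 1851 CPM in WT shoots (log2 fold change -0.36, SE 0.10, adjusted p = 0.00675). The groups did not overlap for either gene. LHCA1 stood at 1759, 1612, 1856 and 1822 CPM in 41-OX shoots and at 2138, 2239.7 and 2277 CPM in WT shoots (log2 fold change -0.32, SE 0.10, adjusted p = 0.0195), and its call was lost without WT shoot replicate 4 or 41-OX shoot replicate 2. LHCA2 stood at 949, 930.1, 994 and 921 CPM in 41-OX shoots and 1072, 1090.5 and 1209.8 CPM in WT shoots and did not pass (adjusted p = 0.0706).

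Of the 9 photosystem I genes, 3 fell, and none of these 3 calls was lost without any 1 library. PSAN (AT5G64040), for a lumenal subunit near the plastocyanin site, stood at 1104, 996, 1101 and 1136 CPM in 41-OX shoots and at 1465, 1396 and 1468 CPM in WT shoots (log2 fold change -0.40, SE 0.11, adjusted p = 0.00948). PSAO (AT1G08380), for a subunit on the side where LHCII docks, stood at 941, 842, 892 and 1012 CPM in 41-OX shoots and at 1170.0, 1189 and 1301 CPM in WT shoots (log2 fold change -0.40, SE 0.11, adjusted p = 0.00625). PSAF (AT1G31330), whose protein docks plastocyanin, stood at 817, 846, 923 and 879 CPM in 41-OX shoots and at 1143, 1074 and 1164 CPM in WT shoots (log2 fold change -0.37, SE 0.11, adjusted p = 0.0119). PSAD-1 and PSAE-1, the stromal subunits that dock ferredoxin, did not pass: PSAD-1 stood at 669, 662, 706 and 708 CPM in 41-OX shoots and 786, 725 and 833 CPM in WT shoots (adjusted p = 0.197), and PSAE-1 had a log2 fold change of -0.11 (adjusted p = 0.432). PSAK, at 1806, 1337, 1587 and 1683 CPM in 41-OX shoots and 1960.0, 1893 and 2042 CPM in WT shoots, also missed the threshold (log2 fold change -0.28, adjusted p = 0.0813), as did PSAG, and PSAH2 and PSAL, which like PSAO lie on the side where LHCII docks.

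Of the 9 photosystem II genes, 5 fell. PSBR had the largest fall of the 40 genes, with 1791, 1442, 1696 and 1956 CPM in 41-OX shoots and 2374, 2538 and 2633 CPM in WT shoots (log2 fold change -0.54, SE 0.11, adjusted p = 0.000621). Its highest 41-OX library lay below its lowest WT library. PSBP-1 (AT1G06680), for a subunit of the oxygen-evolving complex, stood at 1011, 1069.7, 1176 and 1131 CPM in 41-OX shoots and at 1393, 1329 and 1391 CPM in WT shoots (log2 fold change -0.31, SE 0.10, adjusted p = 0.0191), a call lost without WT shoot replicate 1, WT shoot replicate 4 or 41-OX shoot replicate 1. PSBO1 (AT5G66570), the main gene for the manganese-stabilising subunit, stood at 1472, 1405, 1645 and 1595 CPM in 41-OX shoots and at 1844, 1887 and 1899 CPM in WT shoots (log2 fold change -0.29, SE 0.10, adjusted p = 0.0325), a call lost without any 1 of the 3 WT libraries or without 41-OX shoot replicate 1, 2 or 4. PSBQ-2, another protein of that complex, and PSBW, a small membrane subunit, fell as well (adjusted p = 0.0413 and 0.0434). Both calls ended when 41-OX shoot replicate 2 or 4, pxy shoot replicate 2 or 3, or WT shoot replicate 1 or 4 was omitted, and that of PSBW also without WT shoot replicate 3 or 41-OX shoot replicate 1 or 3. PSBO2, the second gene for the manganese-stabilising subunit, had a log2 fold change of -0.24 and missed the threshold (adjusted p = 0.0545), as did the small subunits PSBX and PSBY. NPQ4 had the smallest estimate of the antenna and photosystem genes, with 397, 372, 447 and 445 CPM in 41-OX shoots and 443, 438 and 446 CPM in WT shoots (log2 fold change -0.08, 95% interval -0.27 to 0.11).

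**Figure D2:**
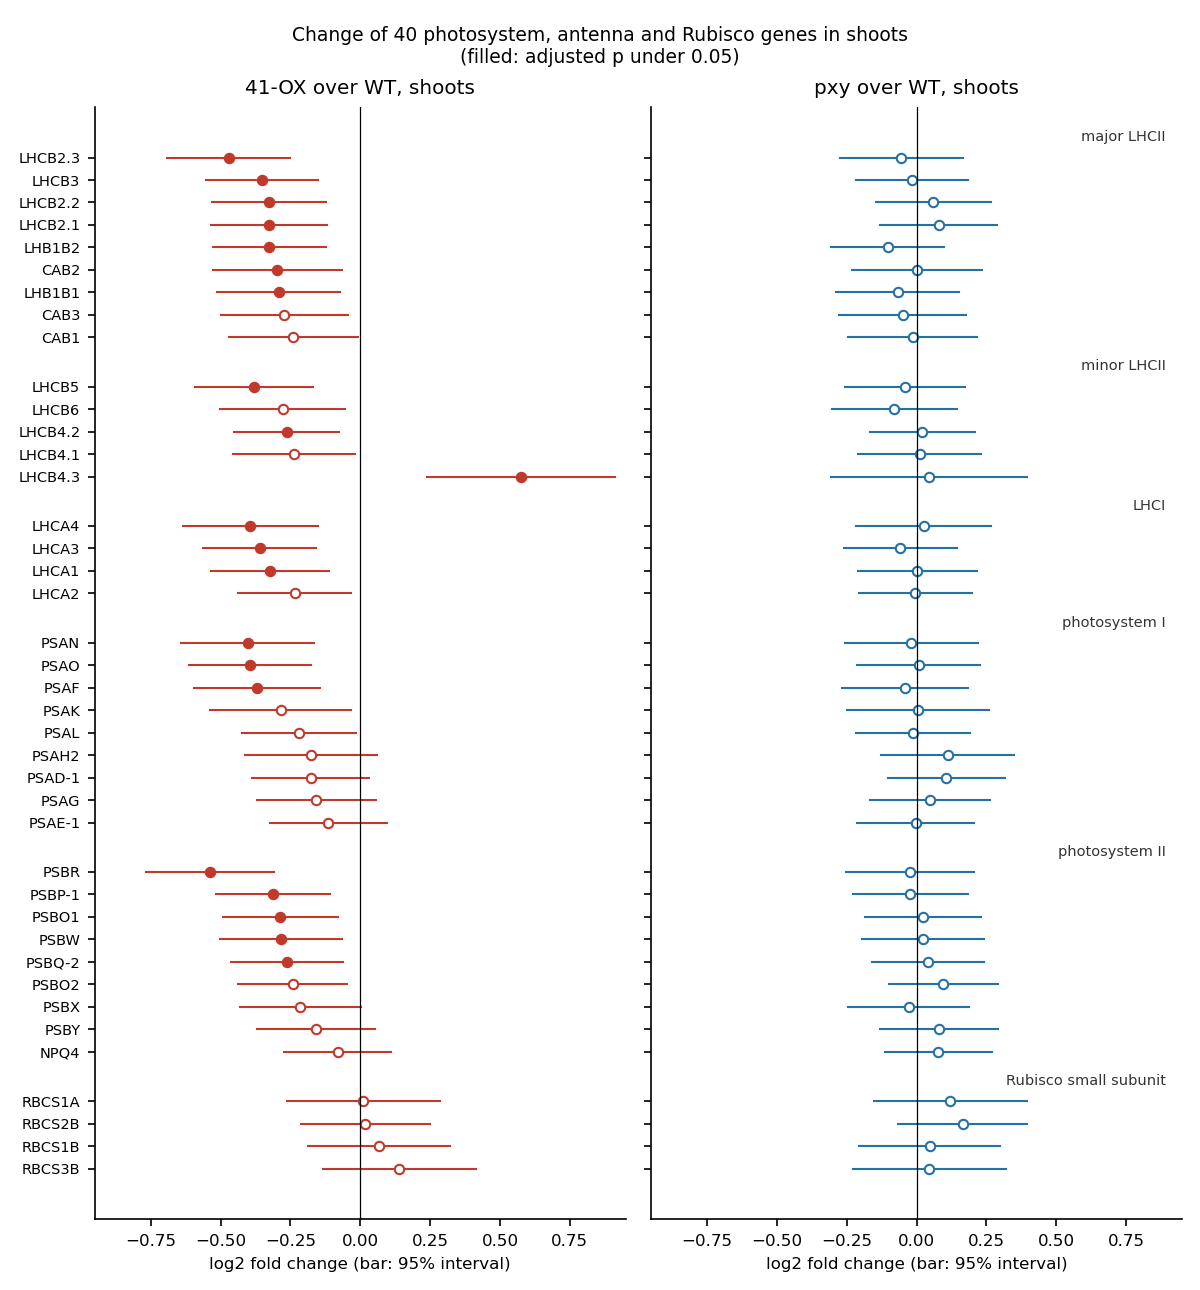
Log2 fold change of each of the 40 genes in shoots, 41-OX over WT on the left and pxy over WT on the right, with 95% intervals from edgeR and filled points where the adjusted p was under 0.05. In 41-OX, 20 genes are lower, from PSBR at -0.54, 1 is higher (LHCB4.3 at 0.57) and the 4 RBCS genes lie around 0; in pxy every interval crosses 0.

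None of the 4 RBCS genes passed the test in 41-OX shoots, at an unadjusted p under 0.05 either. RBCS3B, the one with the smallest p, stood at 1565, 1492, 1692 and 1665 CPM in 41-OX shoots and at 1415, 1503 and 1479.7 CPM in WT shoots (log2 fold change 0.14, SE 0.13, adjusted p = 0.465). RBCS1A stood at 2312, 2053, 2477 and 2511 CPM in 41-OX shoots and at 2229, 2331 and 2451 CPM in WT shoots, with overlapping groups (log2 fold change 0.01). RBCS1B stood at 629, 564, 596 and 578 CPM in 41-OX shoots and at 574, 577 and 555 CPM in WT shoots (log2 fold change 0.07), and RBCS2B had a log2 fold change of 0.02. Over the 4 genes the lowest and highest bounds of the 95% intervals were -0.26 and 0.41. The lack of a call therefore does not show that RBCS levels were unchanged.

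**Figure D3:**
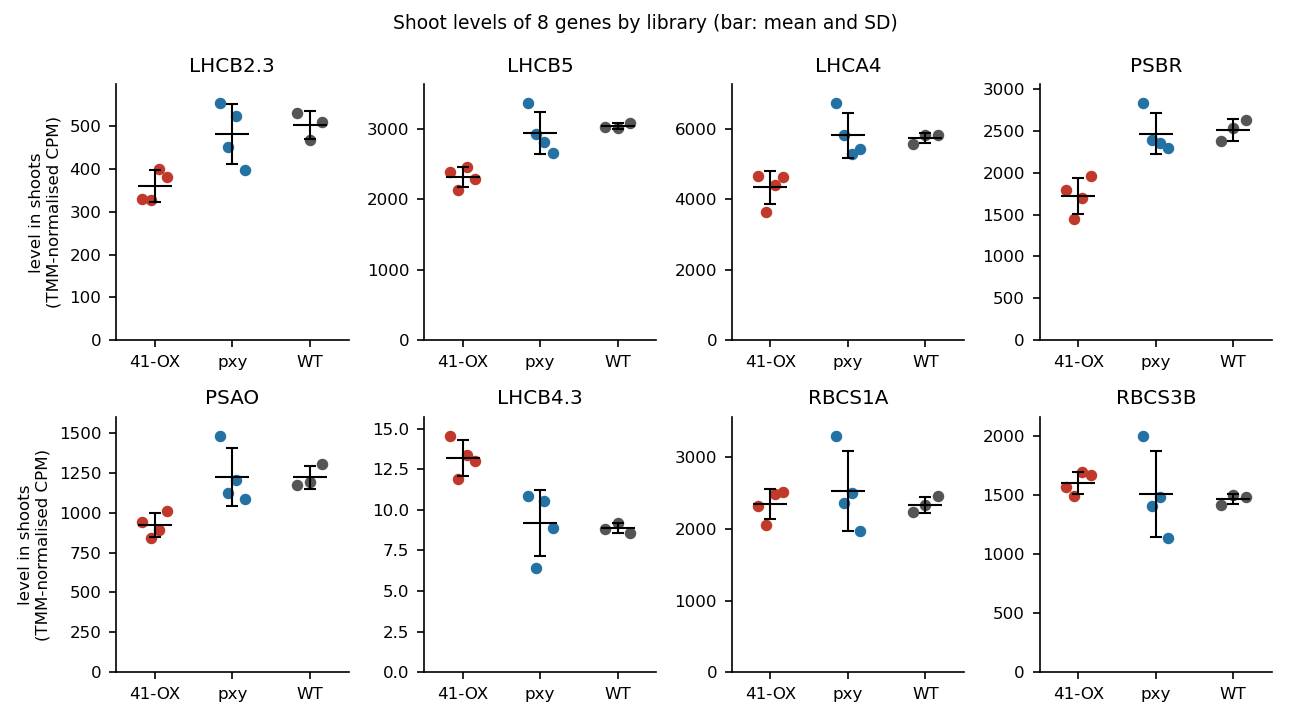
Level of 8 genes in each shoot library, in TMM-normalised CPM from 0, for 41-OX (n = 4), pxy (n = 4) and WT (n = 3), with mean and SD. The 41-OX values of LHCB2.3, LHCB5, LHCA4, PSBR and PSAO lie below all WT values, those of LHCB4.3 lie above them, and those of RBCS1A and RBCS3B overlap with WT.

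As shares of the raw gene counts, which amounts to scaling by total count, antenna genes took 2.38 to 2.65% of gene counts in 41-OX shoots, 2.69 to 3.27% in pxy shoots and 2.93 to 3.07% in WT shoots. RBCS genes took 0.466 to 0.521% in 41-OX shoots, 0.385 to 0.609% in pxy shoots and 0.438 to 0.478% in WT shoots. The ratio of RBCS to antenna counts within a library does not depend on scaling. For every 100 antenna counts there were 19.4 to 20.3 RBCS counts in 41-OX shoots, 14.3 to 18.6 in pxy shoots and 14.95 to 15.6 in WT shoots. The lowest 41-OX library of this ratio lay above the highest pxy and WT libraries. The ratio was formed with earlier results of these data known and is given as a description, with no test.

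**Figure D4:**
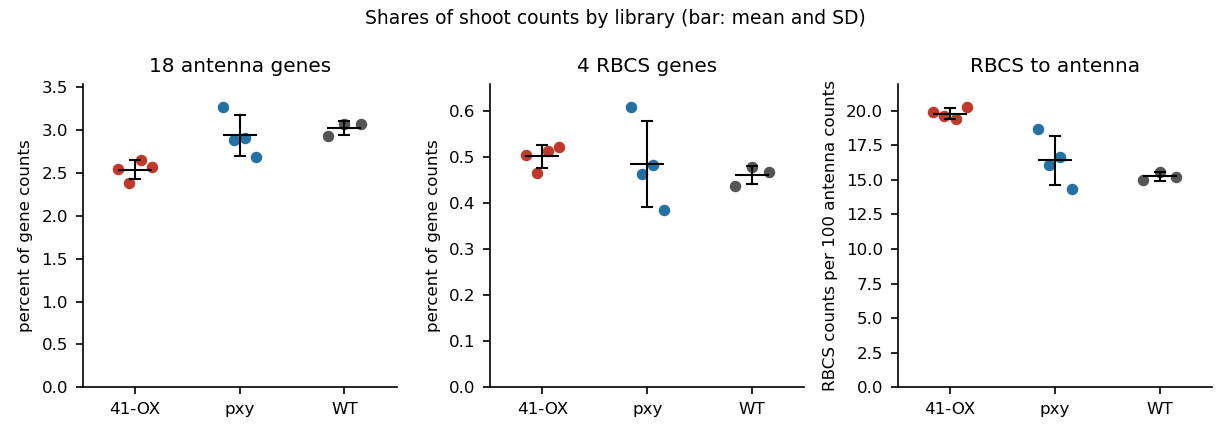
Share of gene counts taken by the 18 antenna genes and by the 4 RBCS genes, and RBCS counts per 100 antenna counts, in each shoot library of 41-OX (n = 4), pxy (n = 4) and WT (n = 3), with mean and SD. The ratio is 19.4 to 20.3 in 41-OX shoots and at most 18.6 in the other shoots.

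Markers of root cell types were also higher in 41-OX shoots. The level of 11 root cell type markers was summed in CPM without TMM scaling. The sum was 158 to 212 CPM in 41-OX shoots, 47.6 to 69.2 CPM in pxy shoots and 53.0 to 67.4 CPM in WT shoots. All 10 that could be tested were called higher in 41-OX than in WT shoots, against 15.1% of all tested genes. Their log2 fold changes ran from 0.35 (SCR) to 4.37 (EXPA7). The endodermis regulators SCR and SHR stood at 25.4 ± 3.59 and 16.8 ± 2.75 CPM in 41-OX shoots and at 20.2 ± 2.45 and 10.7 ± 0.788 CPM in WT shoots (SD, n = 4 and 3). The call of SCR ended when 41-OX shoot replicate 3 or 4 or WT shoot replicate 1 or 3 was omitted. Among the others, the root hair genes EXPA7 and EXPA18 stood at 11.9 ± 0.873 and 19.2 ± 3.88 CPM in 41-OX shoots and at 0.524 ± 0.321 and 0.998 ± 0.189 CPM in WT shoots (SD, n = 4 and 3). The root hair oxidase gene RHD2 stood at 9.29 ± 0.456 CPM in 41-OX shoots and 1.32 ± 0.157 CPM in WT shoots. The marker sum amounted to 14.1 to 18.9% of its mean in roots in 41-OX shoots and to 4.73 to 6.00% in WT shoots. That sum includes SCR and SHR, which at 20.2 and 10.7 CPM were well above 0 in WT shoots. It is therefore not a measure of genes limited to roots. Of 10 shoot and leaf markers outside photosynthesis, 3 were higher (YAB3, SPCH and AS2) and 2 lower (YAB5 and KAT1) in 41-OX shoots. The shares of all tested genes were 15.1% higher and 15.8% lower. The call of AS2 was lost without WT shoot replicate 1, and that of KAT1 in 4 of the 11 fits without 1 library. The sum of the 10 shoot and leaf markers, also without TMM scaling, was 309 to 328 CPM in 41-OX shoots and 313 to 316 CPM in WT shoots. The part of what these markers measure in the fall of the antenna and photosystem genes was not tested.

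None of the 21 called genes of the set reached a log2 fold change of 1 in size. Without WT shoot replicate 4 the number of called genes was 10, without WT shoot replicate 1 it was 12, and without 41-OX shoot replicate 1 or 2 it was 14. With the library labelled WT shoot replicate 2 put back into the fit of shoots, it was 11. In a fit of all 22 libraries, in which roots and shoots share 1 estimate of the spread, LHCB4.3 alone was called. Of the 21 called genes, LHCB4.3 and 9 of the falling ones (PSBR, LHCB2.3, PSAO, LHCB5, LHCA3, LHCB3, PSAN, PSAF and LHCA4) were called in each of the 11 fits without 1 library.

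In pxy shoots none of the 40 genes differed from WT by edgeR's test, at an adjusted p under 0.05 or at an unadjusted p under 0.05, and none by DESeq2. At the adjusted threshold edgeR called 1.7% of all tested genes, and the share at the unadjusted threshold is not given here. The median log2 fold change was 0.01, beside 0.01 over all tested genes. The estimates ran from -0.10 for LHB1B2 to 0.17 for RBCS2B, and the widest 95% bounds over the 40 genes were -0.31 and 0.40. RBCS2B had the smallest p, with 1132, 869, 888 and 746 CPM in the 4 pxy shoots and 772, 812 and 856 CPM in the 3 WT shoots (log2 fold change 0.17, SE 0.11, adjusted p = 0.556). LHB1B2 had the smallest p of the antenna genes, with 2855, 2547, 2594 and 2427 CPM in pxy shoots and 2736, 2762 and 2932 CPM in WT shoots (adjusted p = 0.705).

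The smallest p of each other role belonged to PSAD-1, PSBO2, LHCB6 and LHCA3. PSAD-1 stood at 974, 785, 888 and 702 CPM in pxy shoots and 786, 725 and 833 CPM in WT shoots (adjusted p = 0.705). PSBO2 stood at 776, 623, 665 and 604 CPM in pxy shoots and 650.4, 595 and 635 CPM in WT shoots (adjusted p = 0.715). LHCB6 stood at 1362, 1083, 1148 and 900.4 CPM in pxy shoots and 1198, 1173 and 1203 CPM in WT shoots (adjusted p = 0.814), and LHCA3 stood at 1952, 1717, 1772 and 1648 CPM in pxy shoots and 1801, 1909 and 1851 CPM in WT shoots (adjusted p = 0.851). The pxy shoots were the most variable shoots for these genes, with a median coefficient of variation of 13.8% over the 40 genes, against 4.08% in WT shoots. The library pxy shoot replicate 1 was the highest of the 4 for 39 of the 40 genes.

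41-OX shoots were also compared with pxy shoots, a comparison that shares the 41-OX libraries with the one against WT. Of the 40 genes, 21 were lower and 1 higher in 41-OX than in pxy shoots, against 14.7% and 14.5% of all tested genes. PSBR again had the most negative estimate, with 1791, 1442, 1696 and 1956 CPM in 41-OX shoots and 2827, 2394, 2350.1 and 2293 CPM in pxy shoots (log2 fold change -0.52, SE 0.10, adjusted p = 0.000563). LHCB4.3 was the gene called higher, with 14.6, 11.9, 13.4 and 13.0 CPM in 41-OX shoots and 10.9, 6.41, 10.6 and 8.90 CPM in pxy shoots (log2 fold change 0.53, SE 0.15, adjusted p = 0.0107). By role, 5 of 9 major LHCII, 2 of 5 minor LHCII, 3 of 4 LHCI, 5 of 9 photosystem I and 6 of 9 photosystem II genes were lower, and none of the 4 RBCS genes was called. PSAH2, PSAD-1 and PSBO2 were called lower here (adjusted p = 0.0436, 0.0259 and 0.00532) and LHB1B2 and LHB1B1 were not (adjusted p = 0.0691 and 0.0919); whether the 2 comparisons differ for these genes was not tested. With the library labelled WT shoot replicate 2 put back into the fit of shoots, and in the fit of all 22 libraries, LHCB4.3 was again the only gene called. Of the genes called in the fit of 11 shoot libraries, LHCB4.3 and 12 of the 21 lower genes held in each fit without 1 library. Without pxy shoot replicate 1, 15 genes were lower and 2 were higher.

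In roots no member was called in any comparison by edgeR in the fit of the 11 root libraries. The share of all tested genes called was 6.56% for 41-OX over WT, 0.0394% for pxy over WT and 9.77% for 41-OX over pxy. At an unadjusted p under 0.05 there were 0 genes for 41-OX over WT, 0 for pxy over WT and 20 for 41-OX over pxy. The share of all tested genes at that unadjusted threshold is not given here, so these counts have no background beside them. DESeq2 called none in the comparisons with WT, among the 37 genes with an adjusted p for 41-OX and the 14 for pxy, and called 17 of 37 higher in 41-OX than in pxy roots, against 4.44% of all genes with an adjusted p. In the fit of all 22 libraries edgeR called 28 of the 40 higher in that comparison, against 7.54% of all tested genes called higher. Without 41-OX root replicate 4, the fit of root libraries called 1 gene there, LHB1B2 (log2 fold change 0.71, SE 0.17, adjusted p = 0.0178). The median log2 fold change was 1.46 for 41-OX over WT, -0.92 for pxy over WT and 2.36 for 41-OX over pxy, with intervals that reached from -5.50 to 7.29 over the genes and comparisons.

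Root libraries of 1 genotype differed widely for these genes. The median gene of the 40 stood at 1.23, 1.26, 3.10 and 15.9% of its mean in WT shoots in the 4 libraries of 41-OX roots. It stood at 0.83, 1.32 and 0.82% in the 3 pxy roots, and at 3.50, 1.16, 1.37 and 1.76% in the 4 WT roots. The library 41-OX root replicate 4 was the highest root library for 39 of the 40 genes. Shoot markers varied between the same libraries. The 10 shoot and leaf markers outside photosynthesis were summed in CPM without TMM scaling. Their sum was 4.17, 4.29, 14.2 and 32.9 CPM in 41-OX roots, 3.46, 3.94 and 4.31 CPM in pxy roots and 6.55, 3.16, 3.61 and 4.75 CPM in WT roots. Among these markers YAB5 and MUTE were at 0 in all pxy roots and MUTE in all WT roots, while none was at 0 in all 41-OX roots. AS2, also among the 10, overlapped between the WT organs. AS2 stood at 0.65, 1.29 and 1.89 CPM in WT shoots and at 0.99, 1.80, 0.78 and 2.60 CPM in WT roots. The low sums in roots therefore include a gene that is not low in roots. The part of what these markers measure in the root values was not tested. Without 41-OX root replicate 4 the median log2 fold change of 41-OX over WT roots was -0.062, and without WT root replicate 1 that of pxy over WT roots was -0.46.

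**Figure D5:**
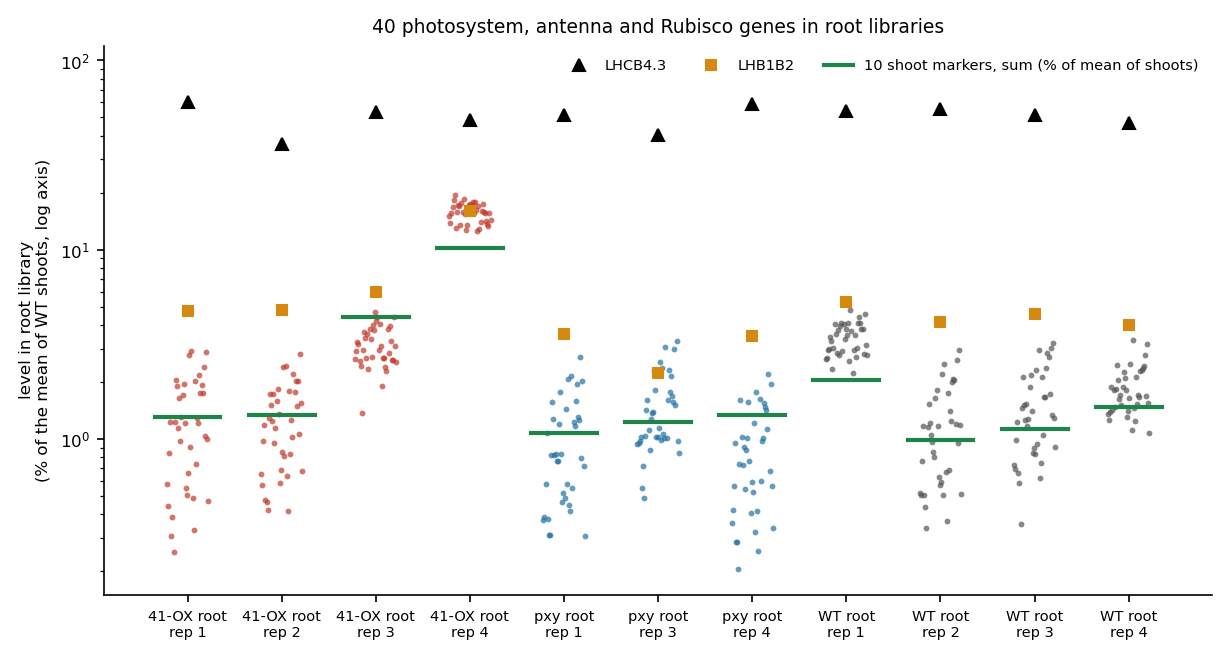
Level of each of the 40 genes in each root library as a percentage of its mean in WT shoots (points, log axis), for 41-OX (4 libraries), pxy (3) and WT (4), with LHCB4.3 (triangles), LHB1B2 (squares) and the sum of 10 shoot markers as a percentage of its mean in shoots (lines). In 41-OX root replicate 4 the median gene reaches 15.9% and the markers 10.3%, whereas LHCB4.3 lies between 36.3 and 60.5% in every library. Genes are TMM-scaled, while the marker sum is not and is set against the mean of all analysed shoots, so these percentages are not on the same scale.

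RBCS3B stood at 9.69, 12.5, 61.4 and 257 CPM in 41-OX roots, 7.13, 16.7 and 7.74 CPM in pxy roots and 52.1, 8.72, 12.3 and 24.2 CPM in WT roots. Its highest value was that of 41-OX root replicate 4. LHCB4.3 stood at 5.37, 3.23, 4.74 and 4.29 CPM in 41-OX roots, 4.59, 3.60 and 5.20 CPM in pxy roots and 4.79, 4.93, 4.58 and 4.15 CPM in WT roots, so that 41-OX root replicate 4 was within the range of the other libraries. Its log2 fold change was -0.08 for 41-OX over WT roots and -0.04 for pxy over WT roots, and its coefficient of variation was the lowest of the 40 genes in 41-OX roots (20.5%) and in WT roots (7.33%).

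LHB1B2 had the smallest p of the major LHCII genes in both comparisons of roots with WT. It stood at 134, 135, 169 and 449 CPM in 41-OX roots, 100.4, 62.5 and 98.6 CPM in pxy roots and 149, 117, 129 and 112 CPM in WT roots, and had a log2 fold change of 0.77 for 41-OX over WT (adjusted p = 0.318) and -0.53 for pxy over WT (adjusted p = 0.651). Next to LHCB4.3 it was the gene nearest to its shoot level in 9 of the 11 root libraries; the exceptions were pxy root replicate 3, where PSBX was, and 41-OX root replicate 4, where LHCB2.2 was. LHB1B1, its neighbour on chromosome 2, stood at 56.5, 21.98, 23.3 and 35.4 CPM in WT roots, against 149, 117, 129 and 112 CPM for LHB1B2.

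The remaining smallest p-values of each role in roots did not pass either. For 41-OX over WT these were PSAE-1 (7.75, 7.01, 25.3 and 153 CPM in 41-OX roots and 22.2, 4.36, 8.06 and 9.61 CPM in WT roots, adjusted p = 0.325), LHCB6 (adjusted p = 0.342), PSBY (adjusted p = 0.373), LHCA1 (adjusted p = 0.405) and RBCS3B (adjusted p = 0.425). For pxy over WT these were LHCA3, LHCB6, PSBP-1, PSAF and RBCS1A, with adjusted p of 0.662 to 0.731. LHCA3 stood at 22.4, 25.8 and 18.8 CPM in pxy roots and at 76.4, 30.7, 34.8 and 42.1 CPM in WT roots, without overlap, and LHCB6 stood at 9.96, 10.4 and 10.9 CPM in pxy roots and 45.1, 11.6, 18.1 and 20.3 CPM in WT roots.

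The difference between the shoot effect and the root effect was tested for each genotype in a fit of all 22 libraries. None of the 40 genes was called for 41-OX over WT, where 16% of all tested genes were, and none for pxy over WT, where 0.00935% were. At an unadjusted p under 0.05 there were 11 genes for 41-OX and 0 for pxy, without the share of all tested genes at that threshold. DESeq2 called none of the 23 genes with an adjusted p in either. In edgeR's fit of all 22 libraries the shoot effect of 41-OX over WT was itself called for LHCB4.3 alone. The median coefficient of variation of the 40 genes in 41-OX roots was 131%. The lack of calls therefore does not show that the effects were alike in shoots and roots. LHCB4.3 had the only positive estimate for 41-OX over WT, at 0.62, and was called with scaling by total count (0.73, adjusted p = 0.0419). The root part of these estimates leaned on 41-OX root replicate 4. In the fit of roots the median log2 fold change of 41-OX over WT was 1.46 with that library and -0.062 without it. Without 41-OX root replicate 1 or 2, edgeR called LHB1B2 with a negative difference (-1.32 and -1.31, adjusted p = 0.0308 and 0.0358). Without replicate 1 it called LHCB4.3 too (0.73, adjusted p = 0.0491).

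Other nuclear genes of the pathway were counted in the same shoots, for 41-OX over WT and against the same 15.8% lower and 15.1% higher of all genes. Of 9 further photosystem and antenna genes 4 were lower, led by the LHC-related gene AT1G76570 (log2 fold change -0.59, SE 0.10, adjusted p = 9.4e-05), the second PSBP gene PSBP-2 (log2 fold change -0.81, SE 0.15, adjusted p = 0.000196) and Lhca6 (log2 fold change -0.44, SE 0.12, adjusted p = 0.0114). Of 12 genes for electron transport and ATP synthase 6 were lower, but 2 were without 41-OX shoot replicate 2 or WT shoot replicate 4, and 3 without 41-OX shoot replicate 4, pxy shoot replicate 2 or WT shoot replicate 1. AT2G26500, a cytochrome b6f subunit gene, stood at 417 ± 48.3 CPM in 41-OX shoots and 636 ± 37.7 CPM in WT shoots (SD, n = 4 and 3; log2 fold change -0.60, adjusted p = 0.000617). The plastocyanin gene DRT112 had a log2 fold change of -0.45, and PGR5, which acts in cyclic electron flow, one of -0.22 that was lost without WT shoot replicate 4 or 41-OX shoot replicate 2.

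Of 15 Calvin cycle genes 3 were lower, CP12-2 (adjusted p = 0.0126), the aldolase gene FBA1 (adjusted p = 0.0263) and the Rubisco activase gene RCA (adjusted p = 0.0489). These calls were lost in 2, 5 and 8 of the 11 fits without 1 library, which included those without WT shoot replicate 4 and without 41-OX shoot replicate 2 for all 3 genes. Of the list, 1 gene was lower without 41-OX shoot replicate 1 or 4 or WT shoot replicate 1. Of 9 genes for photorespiration and carbonic anhydrase 1 was lower, GLDP1 of the glycine decarboxylase (log2 fold change -0.40, SE 0.13, adjusted p = 0.0225), a call that did not hold when WT shoot replicate 1, 3 or 4 was omitted.

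Of 16 chlorophyll synthesis genes 6 were lower and 1 was higher, and without WT shoot replicate 1 only 3 were lower. The calls of AT1G74470, GUN5 and POR C were lost in 7, 4 and 1 of the 11 fits without 1 library. The chlorophyll b synthesis gene CH1 stood at 169 ± 9.21 CPM in 41-OX shoots and 243 ± 23.0 CPM in WT shoots (log2 fold change -0.52, SE 0.08, adjusted p = 4.5e-05), and GUN4, which stimulates magnesium chelatase, fell as well (log2 fold change -0.55, SE 0.09, adjusted p = 6.76e-05). The gene that rose was PORA, the protochlorophyllide reductase of etiolated seedlings, with 10.2, 15.02, 8.85 and 10.4 CPM in 41-OX shoots and 3.90, 4.45 and 3.05 CPM in WT shoots (log2 fold change 1.54, SE 0.21, adjusted p = 7.66e-06). Of 5 genes for antenna insertion and thylakoid kinases 2 were lower, and 1 without 41-OX shoot replicate 4. The kinase gene STN7, which phosphorylates LHCII in state transitions, stood at 141 ± 11.1 CPM in 41-OX shoots and 211 ± 9.34 CPM in WT shoots (log2 fold change -0.57, SE 0.08, adjusted p = 6.58e-06). CAO (AT2G47450), part of the signal recognition particle that brings LHC proteins to the thylakoid, had a log2 fold change of -0.29 and was not called without 41-OX shoot replicate 4 (adjusted p = 0.0114 with all libraries).

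Of 20 regulators of photosynthesis genes 8 were lower in 41-OX shoots and none was higher. GPRI1 (also called GLK1) stood at 71.1, 71.6, 74.1 and 71.0 CPM in 41-OX shoots and 120.3, 129 and 107 CPM in WT shoots (log2 fold change -0.72, SE 0.08, adjusted p = 9.94e-07). GLK2, its partner among the GOLDEN2-LIKE factors, stood at 56.0, 62.0, 59.9 and 65.6 CPM in 41-OX shoots and 93.6, 104 and 90.4 CPM in WT shoots (log2 fold change -0.65, SE 0.09, adjusted p = 4.71e-06). SIGE, a nuclear-encoded sigma factor of the plastid RNA polymerase, had the largest fall, with 12.7, 18.9, 22.7 and 16.6 CPM in 41-OX shoots and 47.5, 47.1 and 41.0 CPM in WT shoots (log2 fold change -1.34, SE 0.16, adjusted p = 8.43e-06). These 3 calls held in each fit without 1 library, and the other 5 were SIGA, CRY1, CGA1, PIF4 and PIL6. The call of PIF4 was lost without WT shoot replicate 1, and that of PIL6 without WT shoot replicate 1 or 4 or 41-OX shoot replicate 2 or 4. In pxy shoots none of the genes in any of these lists was called against WT.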

How the data were processed

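RNA was sequenced from roots and shoots of 3 genotypes, with 4 biological replicates a group and 2 technical replicates a sample per the design text. The authors deposited raw counts per locus, made with CASAVA, TopHat2 and HTSeq on TAIR10 per the submitters' processing notes; versions, strand setting and the joining of technical replicates are not given in the sources used here. Reads outside genes (1.82 to 3.41% of counts) and ambiguous reads (1.80 to 2.61%) stayed out of totals and tests.

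Replicate 2 of pxy roots and replicate 2 of WT shoots, as labelled, were left out of all fits except the alternative with 24 libraries. There the fit of shoots gained only the WT shoot library and the fit of roots only the pxy root library. The fit across organs gained both. Counts were fitted with edgeR 4.0.16 (R 4.3.3; TMM scaling, filterByExpr by group, robust quasi-likelihood test, two-sided), with Benjamini-Hochberg adjustment over all genes tested and calls at an adjusted p under 0.05. Shoots and roots had a fit of 11 libraries each; contrasts between organs used 22. The fits were run on simulated data with log2 changes of 1 and 2 and the same dispersion for every gene. The called changes of the 40 genes between genotypes in shoots were smaller than 1. That run therefore does not show how well such changes are found, nor how the fits handle the spread of the root libraries. DESeq2 1.42.0 and other scalings, filters and sets of libraries were alternatives. Levels are TMM-scaled CPM over 22 libraries, whereas sums of root or shoot markers are CPM without TMM scaling. Symbols, exon lengths and sequences come from RefSeq's TAIR10.1. Values in every library were given, per role and contrast with WT, for up to 3 called genes with the smallest adjusted p (where none was called, for the 1 with the smallest), for the highest and lowest level per kb in shoots and for a called gene opposite to its role; up to 3 called genes were named per other list. Other genes named were chosen after their values were seen. The 40 genes and the other lists were chosen with earlier results of these data known.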

Additional observations from a re-analysis of the deposited data

Results flagged for a closer look

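In 41-OX root replicate 4 the level of 34 of the 40 genes lay far above the other 3 libraries of 41-OX roots by Dixon's test for a single outlying value. Among the major LHCII genes its levels were 351 CPM for CAB2, 523 CPM for CAB1, 317 CPM for LHB1B1, 449 CPM for LHB1B2, 134 CPM for LHCB2.1, 134 CPM for LHCB2.2, 65.8 CPM for LHCB2.3 and 287 CPM for LHCB3. Among the minor LHCII genes its levels were 221 CPM for LHCB4.1, 147 CPM for LHCB4.2, 411 CPM for LHCB5 and 209 CPM for LHCB6. Among the LHCI genes its levels were 351 CPM for LHCA1, 208 CPM for LHCA2, 286 CPM for LHCA3 and 727 CPM for LHCA4. Among the photosystem I genes its levels were 135 CPM for PSAD-1, 153 CPM for PSAE-1, 176 CPM for PSAF, 109 CPM for PSAG, 95.8 CPM for PSAH2, 248 CPM for PSAK, 148 CPM for PSAL, 186 CPM for PSAN and 172 CPM for PSAO. Among the photosystem II genes its levels were 299.6 CPM for PSBO1, 109 CPM for PSBO2, 216 CPM for PSBP-1, 150.1 CPM for PSBQ-2, 356 CPM for PSBR, 264 CPM for PSBW, 110.0 CPM for PSBX, 67.2 CPM for PSBY and 63.8 CPM for NPQ4. The sum of the 40 genes was 9052 CPM in this library. The RBCS genes, CAB3 and LHCB4.3 did not reach the threshold of that test. The RBCS genes and CAB3 were still highest in this library. In the libraries of 41-OX roots CAB3 stood at 11.6, 14.9, 76.6 and 364 CPM and RBCS3B at 9.69, 12.5, 61.4 and 257 CPM. LHCB4.3 stood at 5.37, 3.23, 4.74 and 4.29 CPM, so this library was within the range of the others for that gene.

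LHB1B2 was set apart in 41-OX shoot replicate 3, at 2413 CPM. In WT root replicate 1, PSAD-1 stood at 32.2 CPM and PSBX at 37.7 CPM, far above the other WT roots. In all, 38 of 164 comparisons of this kind stood out, where chance gives about 1 in 20. The genes of a library share its RNA, so these comparisons are not independent.

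The 40 genes also gave a signal in the 2 libraries left out. They took 5.27% of the gene counts in the library labelled pxy root replicate 2, against at most 0.231% in WT roots, and 13.2% in the library labelled WT shoot replicate 2, against at most 5.39% in the other WT shoots. The cause was not tested.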

How the results depend on the processing

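Of the 20 lower and 1 higher genes called in 41-OX over WT shoots, the number called was 12 with the replicate block, 11 with 24 libraries as labelled, 1 with 22 libraries in 1 fit and 0 with a required log2 change of at least 1. Their median log2 fold change over the 40 genes was -0.21 with scaling by total count only and -0.81 with 24 libraries. For 41-OX over pxy shoots the number called was 1 with 24 libraries, 1 with 22 libraries in 1 fit and 0 with that required change. The median for pxy over WT was -0.54 in shoots and 3.88 in roots with 24 libraries. For 41-OX over pxy roots the number was 17 with DESeq2, 28 with 22 libraries in 1 fit and 1 without the 3 root libraries with most shoot marker RNA, an alternative chosen after seeing the data; without those 3 the median of 41-OX over WT roots was -0.27. Shoot over root calls were 23 in each genotype with DESeq2, which gave no adjusted p for the other 17 genes, and 2 in pxy with 24 libraries. For 41-OX, the difference between the shoot and root effects was called for 1 gene with scaling by total count and for 1 with the replicate block, LHCB4.3 in both. Apart from the DESeq2 counts in shoot over root, the cause was not tested.

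Leaving out each library in turn gave 10 to 30 called genes for 41-OX over WT shoots, 15 to 31 for 41-OX over pxy shoots, 0 to 1 for 41-OX over pxy roots and 0 to 2 for the 41-OX difference between organs. For 41-OX over WT shoots the lowest count came from omitting WT shoot replicate 4 and the highest from omitting pxy shoot replicate 1. The median ranged from -0.29 to -0.24 for 41-OX over WT shoots, -0.091 to 0.068 for pxy over WT shoots, -0.062 to 1.83 for 41-OX over WT roots and -1.19 to -0.46 for pxy over WT roots. Same-numbered libraries of different groups had correlations of their deviations from -0.70 to 0.56, so the numbers were not taken as pairs. No called value changed sign. Medians over genes that were not called did: those of pxy over WT in shoots and in roots and of 41-OX over WT in roots. Root libraries held 7897789 to 12226066 counts, and there the median gene lay at 0.82 to 15.9% of its shoot level, with a median coefficient of variation of 131% in 41-OX roots.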
